A study of Mus musculus with 9 samples.

Results

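Chemokine ligands are small secreted proteins, and the 36 of them measured here were followed across 3 strains of mouse mammary epithelial cells. A gene was counted as a ligand if the array had a probeset for it alone and its symbol began with Ccl or Cxcl and a digit, or was Cx3cl1, Xcl1, Pf4 or Ppbp, and each was read from its probeset with the highest mean over all arrays. These 36 stand among 19937 genes with such a probeset. Transcripts were measured in HC11 cells, a line from the mammary gland of BALB/c mice in mid-pregnancy, with 3 arrays per strain and 9 in all. Every strain stably overexpressed a construct of Mkl1, a coactivator of the transcription factor SRF, fused to red fluorescent protein. HC11-FL cells, the control, carried the full length protein, HC11-mutB1 cells a form whose site of SRF interaction was mutated, and HC11-ΔSAP cells a form lacking the SAP domain, a putative DNA-binding domain. All cells had been held for 48 h in RPMI with 0.03% FCS and no EGF. Each construct was represented by 1 strain sorted for similar fluorescence, and no strain with an empty vector was arrayed. The labels do not say whether the arrays of a strain came from separate cultures, so p-values measure only the spread between these samples, which may be technical.

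Chemokines draw leukocytes along a gradient by binding receptors coupled to G proteins on the target cell. CXC ligands with a Glu-Leu-Arg motif, such as Cxcl1 and Cxcl5, act mainly on neutrophils through Cxcr2, whereas most CC ligands act on monocytes, dendritic cells and lymphocytes. Epithelial cells make many of them, often under the control of NF-kB, and the mammary epithelium does so when it meets bacteria.

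The values are log2 expression levels, so a difference of 1 is a doubling. A mean over the 9 arrays of at least 4 was taken as expressed, as in the methods of the study, and 18 of the 36 ligands met it, beside 13157 of the 19937 genes. Among these 18 the lowest mean of any strain was 4.33, so none was called expressed through 1 strain alone. Ccl7 lay just inside the minimum with a mean of 4.55 and Ccl11 just outside with 3.98. The arrays had medians of 4.53 to 4.60, and over expressed probesets correlated at 0.992 to 0.995 within a strain and at 0.972 to 0.979 between strains. For 6 of the 18 expressed ligands (Ccl9, Ccl20, Ccl25, Cxcl5, Cxcl12 and Cxcl17), exactly the same value occurs on several arrays of a strain. Among all 36 ligands, expressed or not, this holds for 20, and among all probesets for 31%. The SDs and p-values of these 6 ligands may be too small. As a check of the labels, the Mkl1 probeset, listed as Mrtfa, had strain means of 9.95, 9.83 and 9.47 in HC11-FL, HC11-mutB1 and then HC11-ΔSAP cells, which does not separate the constructs from the endogenous transcript. By limma it was 1.39-fold lower in HC11-ΔSAP than HC11-FL control cells (adjusted p = 0.0018). In HC11-mutB1 cells it was 1.09-fold lower (adjusted p = 0.31). Levels of different probesets are not on a scale that allows 1 gene to be set against another.

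**Figure D1:**
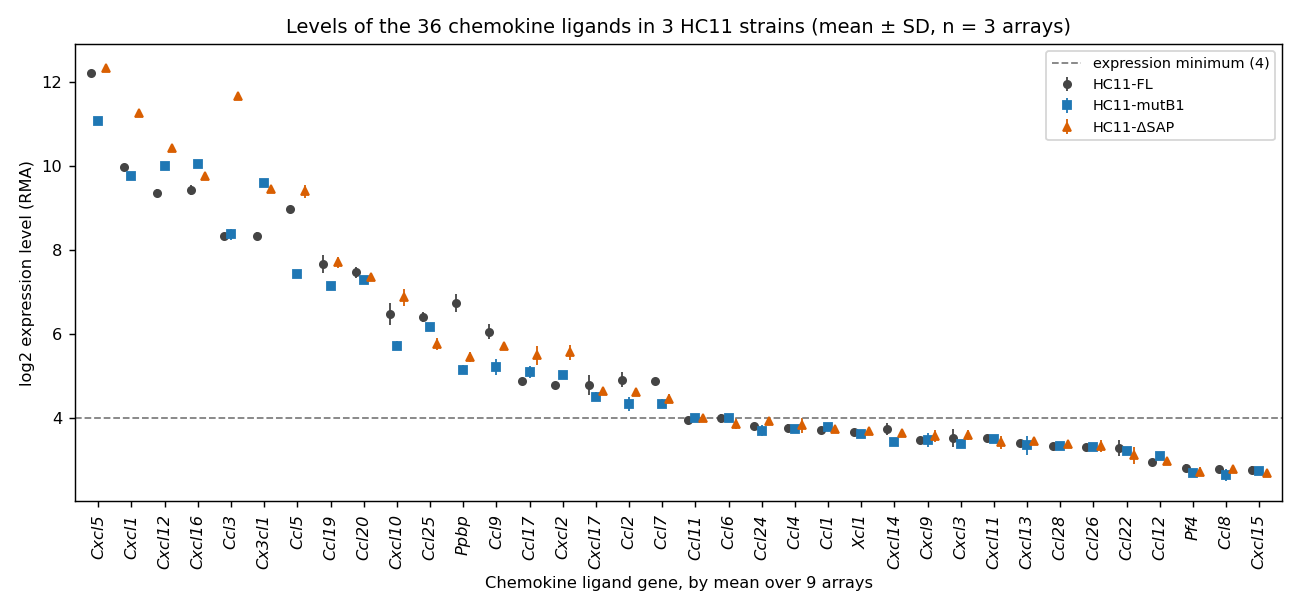
Log2 expression level (y-axis) of the 36 ligands, ordered by their mean over 9 arrays (x-axis), with circles for HC11-FL, squares for HC11-mutB1 and triangles for HC11-ΔSAP cells. Points are means of 3 arrays, bars the SD and the dashed line the expression minimum of 4. In 18 ligands all strains lie above the line, and Ccl3 in HC11-ΔSAP cells, at 11.67, stands apart from its other strains.

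Of the 18 expressed ligands, 8 differed between at least 1 pair of strains by all filters. The filters are an adjusted p of at most 0.01 (limma, Benjamini-Hochberg over all probesets), a fold of at least 2 and the expression minimum. The share of all expressed genes passing in at least 1 comparison was not counted, so this number has no matching background. Shares for each comparison and direction are given below. HC11-mutB1 cells had lower Cxcl5, Ccl5 and Ppbp and higher Cx3cl1 than HC11-FL control cells. HC11-ΔSAP cells had higher Ccl3, Cxcl1, Cxcl12 and Cx3cl1 and lower Ppbp than HC11-FL control cells. Set directly against HC11-mutB1 cells, HC11-ΔSAP cells had higher Ccl3, Ccl5, Cxcl1, Cxcl5 and Cxcl10.

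In HC11-mutB1 compared with HC11-FL control cells, 3 of the 18 ligands were lower by all filters, where 1.67% of all expressed genes were, and 1 was higher, where 2.21% were. By the adjusted p alone, at any fold, 7 were lower (10.6% of all expressed genes) and 3 higher (15.7%). In HC11-ΔSAP compared with HC11-FL control cells, 1 ligand was lower (2.07% of all expressed genes) and 4 were higher (2.06%) by all filters. At any fold these were 3 (12.0%) and 8 (16.0%). In HC11-ΔSAP compared with HC11-mutB1 cells, limma found 5 ligands higher by all filters (1.61% of all expressed genes) and 0 lower (2.28%). At any fold 7 were higher (9.86%) and 0 lower (10.6%), and at an unadjusted p under 0.05 the lower ones were Ccl25 and Cxcl16 (21.5%).

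The median log2 fold change of the 18 ligands was -0.25 in HC11-mutB1 and 0.23 in HC11-ΔSAP compared with HC11-FL control cells, and 0.41 in HC11-ΔSAP compared with HC11-mutB1 cells. Over all expressed genes these medians were -0.01, 0.00 and 0.02. Regardless of direction, the median size of the change was 0.56, 0.41 and 0.41 for the ligands and 0.17, 0.16 and 0.13 for all expressed genes. The comparisons with HC11-FL control cells use the same control arrays. Exact two-sided permutation tests of 3 against 3 arrays cannot give a p under 0.1, and they gave 0.1 for every ligand whose arrays did not overlap between strains.

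**Figure D2:**
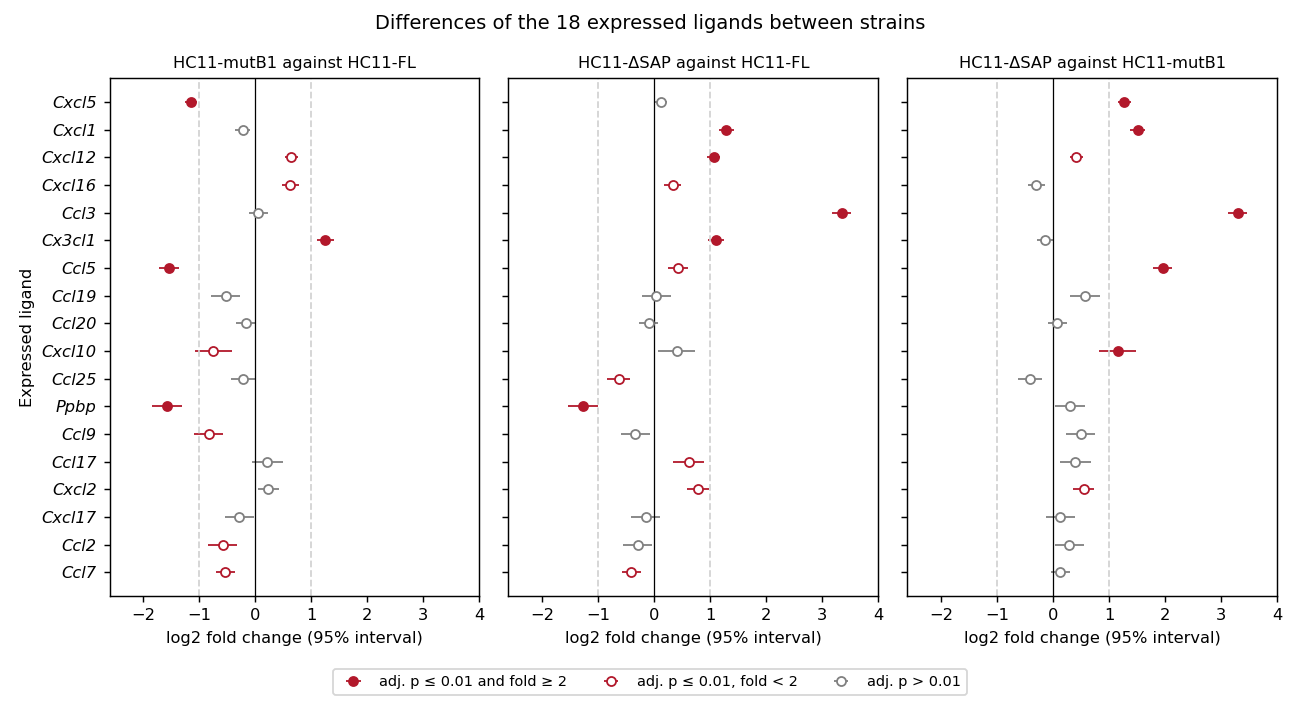
Log2 fold change (x-axis) of the 18 expressed ligands (y-axis) in the 3 comparisons of strains, with bars for the 95% interval of limma and dashed lines at 2-fold. Filled red points passed all filters, open red points passed an adjusted p of 0.01 at a smaller fold, and grey points did not pass. Ccl3 lies at 3.35 and 3.29 in the panels with HC11-ΔSAP cells and at 0.05 in the panel without them.

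Among ligands of Cxcr2, Cxcl5, a neutrophil attractant of epithelial cells, was read at 12.20, 12.23 and 12.20 in HC11-FL cells, 11.09, 11.00 and 11.10 in HC11-mutB1 cells and 12.26, 12.37 and 12.37 in HC11-ΔSAP cells. All HC11-mutB1 arrays lay below those of the other strains, which differed little. Cxcl5 fell 2.21-fold in HC11-mutB1 compared with HC11-FL control cells (log2 difference -1.15, SE 0.05, adjusted p = 2.4e-06). In HC11-ΔSAP cells the difference from HC11-FL was 0.12, with a 95% interval of 0.01 to 0.24 (adjusted p = 0.14), and HC11-ΔSAP exceeded HC11-mutB1 cells by 2.41-fold (adjusted p = 1.9e-06).

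Cxcl1, a neutrophil attractant and early target of inflammatory signals, was read at 10.03, 9.95 and 9.95 in HC11-FL cells, 9.81, 9.78 and 9.65 in HC11-mutB1 cells and 11.19, 11.30 and 11.30 in HC11-ΔSAP cells. Here the HC11-ΔSAP arrays stood above all others. Cxcl1 rose 2.44-fold over HC11-FL control cells (log2 difference 1.29, SE 0.06, adjusted p = 3.6e-06) and 2.85-fold over HC11-mutB1 cells. The log2 difference between HC11-mutB1 and HC11-FL cells was -0.23 (adjusted p = 0.031).

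Cxcl2, the neighbour and close relative of Cxcl1, was read at 4.81, 4.74 and 4.80 in HC11-FL cells, 4.98, 5.07 and 5.00 in HC11-mutB1 cells and 5.36, 5.69 and 5.64 in HC11-ΔSAP cells. The strains did not overlap. Cxcl2 rose 1.72-fold in HC11-ΔSAP over HC11-FL control cells (log2 difference 0.78, adjusted p = 3.1e-04) and 1.46-fold over HC11-mutB1 cells (adjusted p = 0.0029), the latter call being lost in 6 of 17 other settings. Cxcl3, a further relative, had a mean of 3.50 and was not expressed. Whether probes of Cxcl1, Cxcl2 and Cxcl3 bind each other's transcripts was not examined.

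Ppbp, also called Cxcl7 and known as the platelet basic protein, was read at 6.75, 6.93 and 6.50 in HC11-FL cells, 5.17, 5.02 and 5.24 in HC11-mutB1 cells and 5.55, 5.32 and 5.50 in HC11-ΔSAP cells. It was the only ligand that was lower in both mutant strains by all filters. Ppbp fell 2.99-fold in HC11-mutB1 (log2 difference -1.58, SE 0.12, adjusted p = 4.5e-05) and 2.41-fold in HC11-ΔSAP compared with HC11-FL control cells (-1.27, SE 0.12, adjusted p = 1.4e-04). Between the mutant strains the log2 difference was 0.31, with a 95% interval of 0.04 to 0.58 (adjusted p = 0.14). Its neighbour Pf4, another platelet chemokine, had a mean of 2.74.

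These genes lie side by side on chromosome 5 in GRCm38.p6, in the order Cxcl5, Ppbp, Pf4, Cxcl3, Cxcl15, Cxcl1 and Cxcl2 with no other protein-coding gene in between. In HC11-ΔSAP compared with HC11-FL control cells, Ppbp fell and Cxcl1 and Cxcl2 rose within this run, while in HC11-mutB1 cells Cxcl5 and Ppbp fell. Pf4, Cxcl3 and Cxcl15 lay under the expression minimum in every strain.

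The sequences before the start of Cxcl1, Cxcl2 and Ppbp are shown because these neighbours moved in different directions. They are the 250 bases upstream of the RefSeq transcript start in GRCm38.p6, written in the direction of the gene, from chr5:90890995-90891244, chr5:90903649-90903898 and chr5:90768268-90768517, all on the plus strand. Capitals mark matches to 5 motifs searched on both strands, which may overlap. These are the NF-kB motif, the CArG box bound by SRF, the AP-1 motif TGANTCA, the interferon-stimulated response element GAAANNGAAA and the TATA motif TATAAA.
Cxcl1: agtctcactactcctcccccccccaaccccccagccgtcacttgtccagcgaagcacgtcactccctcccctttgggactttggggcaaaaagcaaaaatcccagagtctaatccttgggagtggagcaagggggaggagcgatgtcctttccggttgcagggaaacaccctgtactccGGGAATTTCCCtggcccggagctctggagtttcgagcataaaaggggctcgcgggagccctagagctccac
Cxcl2: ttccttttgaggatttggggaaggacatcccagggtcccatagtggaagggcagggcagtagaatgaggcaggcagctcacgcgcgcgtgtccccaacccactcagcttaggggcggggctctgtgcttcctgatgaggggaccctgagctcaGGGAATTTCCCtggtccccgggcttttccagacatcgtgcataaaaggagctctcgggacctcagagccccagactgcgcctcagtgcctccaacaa
Ppbp: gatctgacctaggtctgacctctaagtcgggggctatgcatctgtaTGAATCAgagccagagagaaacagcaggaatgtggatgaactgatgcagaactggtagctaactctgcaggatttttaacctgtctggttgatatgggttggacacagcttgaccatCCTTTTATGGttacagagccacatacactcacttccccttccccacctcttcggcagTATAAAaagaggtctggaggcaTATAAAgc
Cxcl1 and Cxcl2 hold the same NF-kB match, GGGAATTTCC, first met 71 and 97 bases before the start. Cxcl3 holds it too, 73 bases before the start. Ppbp holds no NF-kB match in this window but a CArG box, CCTTTTATGG, 87 bases before the start, an AP-1 match and a pair of TATA matches. Of 32851 mouse promoters cut to the same length, 7.25% held an NF-kB match, 1.47% a CArG box, 6.75% an AP-1 match, 2.98% an interferon-stimulated response element and 12.4% a TATA match. RefSeq promoters were available for 25 of the 36 ligands and 12 of the 18 expressed ones. A match is a run of letters and was not tested as a binding site.

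Ccl3, or macrophage inflammatory protein 1 alpha, which attracts monocytes and lymphocytes, gave the largest difference of any expressed ligand. It was read at 8.39, 8.29 and 8.29 in HC11-FL cells, 8.22, 8.45 and 8.45 in HC11-mutB1 cells and 11.59, 11.69 and 11.72 in HC11-ΔSAP cells. HC11-FL and HC11-mutB1 arrays overlapped, and the HC11-ΔSAP arrays lay far above them. Ccl3 rose 10.2-fold over HC11-FL control cells (log2 difference 3.35, SE 0.07, adjusted p = 1.4e-07) and 9.81-fold over HC11-mutB1 cells (3.29, SE 0.07, adjusted p = 1.9e-07). The difference between HC11-mutB1 and HC11-FL cells was 0.05, with a 95% interval of -0.12 to 0.22 (adjusted p = 0.72). Ccl4, its neighbour on chromosome 11, had a mean of 3.77 and was at 3.82 in HC11-ΔSAP cells.

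Ccl3 is best known as a product of macrophages, so markers of other cell types were read beside it. Of 8 mammary epithelial markers 7 were expressed, with Krt19 at 3.39 as the exception. Of 11 measured leukocyte markers 4 were expressed (Cd14, Cd68, Csf1r and Cd3e). The other measured members were under the minimum, Fcgr1 only just. Ptprc was at 3.49, Itgam at 2.96, Adgre1 at 3.11, Lyz2 at 3.21, Itgax at 3.32 and Ly6g at 2.86. Members of the list thus lay on both sides of the minimum, and whether leukocytes were present was not tested. The summed linear level of the leukocyte list was 627 to 642 in HC11-FL, 726 to 742 in HC11-mutB1 and 1248 to 1276 in HC11-ΔSAP arrays. Such sums follow the brightest probesets of a list, here Cd14 and Cd68, and are no measure of the number of cells. Cd14, an endotoxin receptor that epithelial cells can also make, rose 2.83-fold in HC11-ΔSAP over HC11-FL control cells (adjusted p = 6.3e-07), and Cd68 1.37-fold (adjusted p = 1.3e-04). Csf1r and Cd3e differed there by -0.18 and -0.05 (adjusted p = 0.31 and 0.78). In HC11-mutB1 cells, whose Ccl3 arrays overlapped those of HC11-FL, Cd14 rose by 0.58 on the log2 scale (adjusted p = 8.8e-05). Cd68 went the other way there, with a log2 difference of -0.34 (adjusted p = 6.2e-04). Csf1r and Cd3e differed by 0.12 and -0.09 (adjusted p = 0.51 and 0.57).

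The mammary epithelial list summed to 7377 to 7606 in HC11-FL, 8954 to 9168 in HC11-mutB1 and 6730 to 6825 in HC11-ΔSAP arrays. Its members moved in both directions. Compared with HC11-FL control cells, the log2 differences in HC11-ΔSAP cells were -1.90, -1.36, -0.32 and -0.27 for Krt5, Krt18, Krt8 and Krt14. Those of Trp63, Epcam and Cdh1 were 0.69, 0.42 and 0.37. In HC11-mutB1 cells Krt8 and Krt18 differed by -0.72 and -0.65. Krt5, Krt14, Epcam and Trp63 differed there by 1.15, 0.59, 0.54 and 0.43. All of these passed an adjusted p of 0.01. Of 8 fibroblast markers 7 were expressed, with sums of 508 to 530 in HC11-FL, 442 to 475 in HC11-mutB1 and 511 to 518 in HC11-ΔSAP arrays. In HC11-ΔSAP compared with HC11-FL control cells, Dcn rose by 1.81 on the log2 scale (adjusted p = 2.0e-07), while Pdgfra and Pdgfrb fell by 0.42 and 0.38 (adjusted p = 0.0059 and 0.0076) and the other 4 expressed members did not pass the test. Of 6 endothelial markers 1 was expressed, with sums of 74 to 81 over all arrays. In RNA of whole cultures, fewer cells of a type and less RNA per cell cannot be told apart, and the part of such cells in the ligand values was not tested.

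Ccl5, or RANTES, which attracts T cells and monocytes, was read at 9.0, 8.95 and 8.96 in HC11-FL cells, 7.41, 7.40 and 7.50 in HC11-mutB1 cells and 9.22, 9.50 and 9.44 in HC11-ΔSAP cells. The HC11-mutB1 arrays lay below and the HC11-ΔSAP arrays above those of HC11-FL. Ccl5 fell 2.90-fold in HC11-mutB1 compared with HC11-FL control cells (log2 difference -1.53, SE 0.08, adjusted p = 5.0e-06). HC11-ΔSAP exceeded HC11-mutB1 cells by 3.88-fold (adjusted p = 1.9e-06). The rise of 1.34-fold over HC11-FL (adjusted p = 0.0050) was under the fold minimum and lost its call in 9 of 17 other settings.

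Cxcl10, an interferon-induced ligand of Cxcr3 on T cells, was read at 6.76, 6.29 and 6.35 in HC11-FL cells, 5.80, 5.59 and 5.76 in HC11-mutB1 cells and 6.84, 7.08 and 6.69 in HC11-ΔSAP cells. The HC11-mutB1 arrays were the lowest, and those of HC11-FL and HC11-ΔSAP overlapped. Cxcl10 was 2.22-fold higher in HC11-ΔSAP cells than HC11-mutB1 cells (log2 difference 1.15, SE 0.14, adjusted p = 9.7e-04). It was 1.68-fold lower in HC11-mutB1 cells than HC11-FL control cells (adjusted p = 0.0075), a call lost in 9 of 17 other settings. The related Cxcr3 ligands Cxcl9 and Cxcl11 had means of 3.50 and 3.48.

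**Figure D3:**
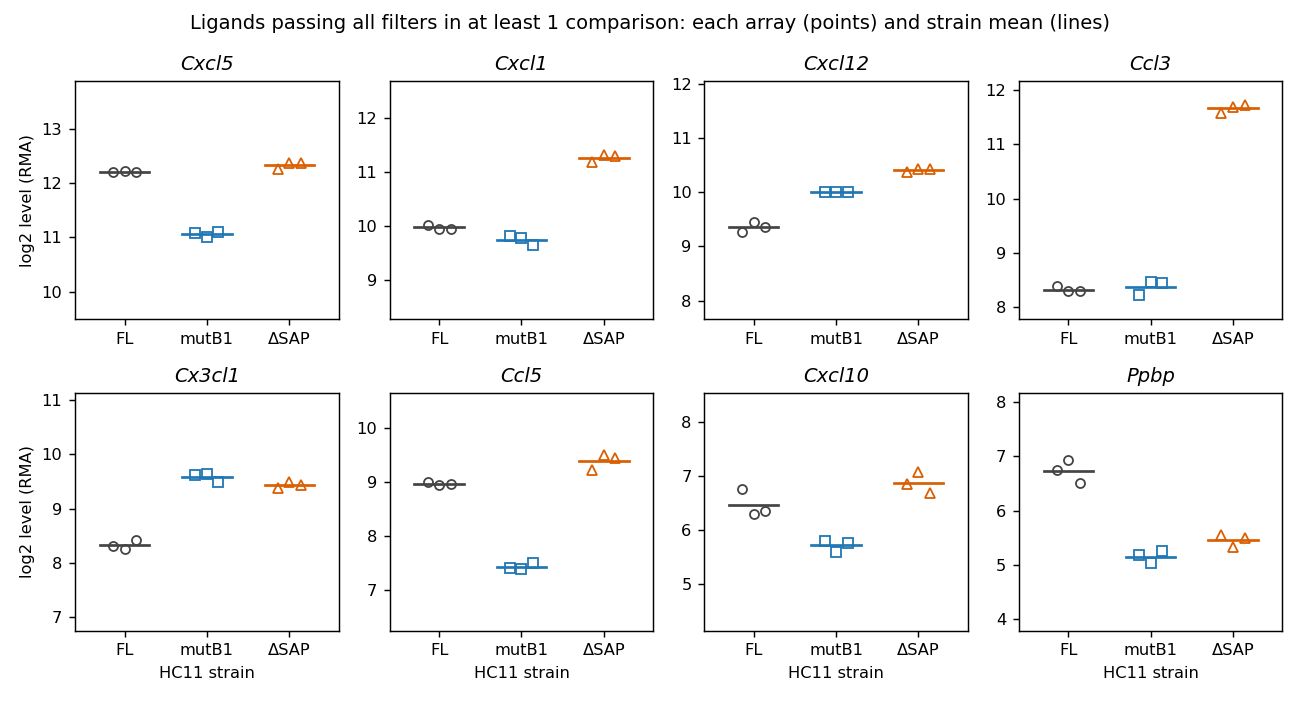
Log2 level (y-axis) on each array, as points, and strain mean, as a line, for the 8 ligands that passed all filters in at least 1 comparison, with 1 panel per gene and the strains on the x-axis. Every panel spans the same range of log2 units around its own centre. HC11-ΔSAP stands apart for Ccl3 and Cxcl1, HC11-mutB1 for Cxcl5, Ccl5 and Cxcl10, and HC11-FL for Cx3cl1 and Ppbp.

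The promoters of Ccl3 and Cxcl10 are shown for contrast, since both genes were higher in HC11-ΔSAP cells than HC11-mutB1 cells and 1 holds many matches and the other none. They lie at chr11:83649379-83649628 and chr5:92348890-92349139, both on the minus strand of GRCm38.p6.
Ccl3: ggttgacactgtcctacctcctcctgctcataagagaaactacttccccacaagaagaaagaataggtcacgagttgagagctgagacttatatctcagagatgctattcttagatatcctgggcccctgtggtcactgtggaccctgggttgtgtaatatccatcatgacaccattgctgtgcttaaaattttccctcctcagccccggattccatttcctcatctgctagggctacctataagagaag
Cxcl10: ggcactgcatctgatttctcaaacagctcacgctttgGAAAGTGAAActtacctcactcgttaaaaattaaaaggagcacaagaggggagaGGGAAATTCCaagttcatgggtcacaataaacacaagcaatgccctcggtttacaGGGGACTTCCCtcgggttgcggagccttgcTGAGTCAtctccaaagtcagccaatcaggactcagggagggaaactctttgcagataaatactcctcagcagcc
Cxcl10 holds the interferon-stimulated response element GAAAGTGAAA 213 bases before the start, NF-kB matches at 159 and 104 bases and an AP-1 match, TGAGTCA, at 74 bases. In the Ccl3 window none of the 5 motifs was matched. Of the 13 promoters of expressed ligands, 2 of them for Ccl25, the NF-kB motif was in 5 (Ccl20, Ccl9, Cxcl1, Cxcl10 and Cxcl2), the AP-1 motif in 3 (Ccl9, Cxcl10 and Ppbp), the response element in 2 (Ccl19 and Cxcl10), the TATA motif in 4 (Ccl25, Ccl9, Cx3cl1 and Ppbp) and the CArG box in 1.

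**Figure D4:**
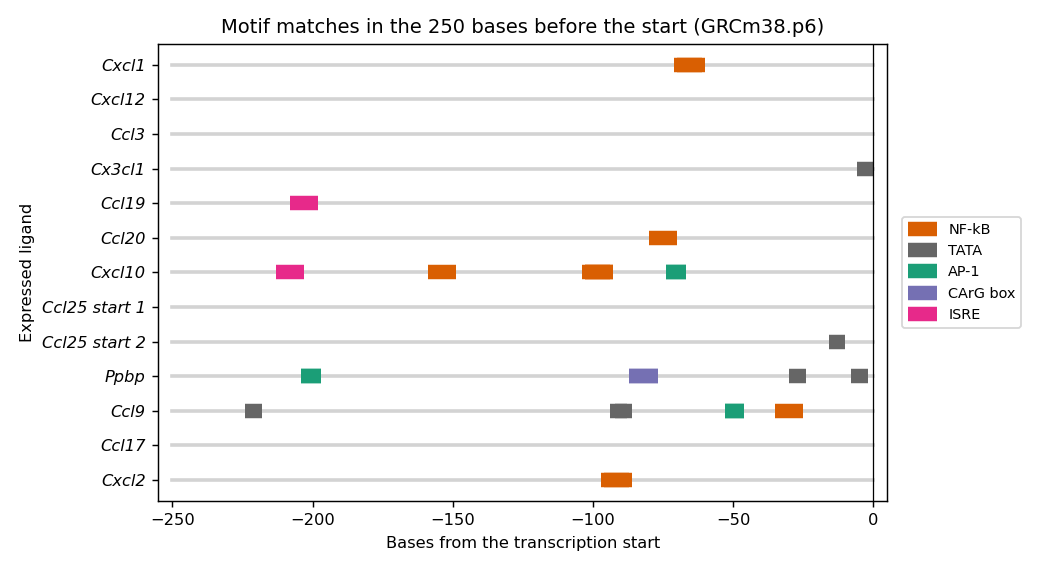
Position of motif matches, in bases from the transcript start (x-axis), in the 250 bases before the start of 13 promoters of expressed ligands (y-axis). Grey lines are the promoters and coloured boxes the matches on either strand. Cxcl1, Cxcl2, Cxcl10, Ccl9 and Ccl20 hold NF-kB matches, and Cxcl12, Ccl3, Ccl17 and the first Ccl25 start hold no match to any of the 5 motifs.

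Cx3cl1, or fractalkine, is anchored in the membrane of the cell that makes it and binds Cx3cr1. It was read at 8.31, 8.25 and 8.42 in HC11-FL cells, 9.62, 9.63 and 9.50 in HC11-mutB1 cells and 9.38, 9.49 and 9.44 in HC11-ΔSAP cells. The HC11-FL arrays lay below all others. Cx3cl1 rose 2.38-fold in HC11-mutB1 (log2 difference 1.25, SE 0.06, adjusted p = 5.3e-06) and 2.16-fold in HC11-ΔSAP cells (1.11, SE 0.06, adjusted p = 1.1e-05). It was the only ligand higher by all filters in both mutant strains compared with HC11-FL control cells. Between the mutant strains the log2 difference was -0.14, with a 95% interval of -0.29 to 0.00 (adjusted p = 0.20). On chromosome 8 it lies between Ccl22, not expressed at a mean of 3.20, and Ccl17, a ligand of Ccr4 that was 1.53-fold higher in HC11-ΔSAP cells than HC11-FL control cells (adjusted p = 0.0080), a call lost in 9 of 17 other settings.

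Cxcl12, which guides stem cells and leukocytes through Cxcr4, was read at 9.27, 9.45 and 9.35 in HC11-FL cells, at 10.00 on each HC11-mutB1 array and at 10.37, 10.44 and 10.44 in HC11-ΔSAP cells. The strains did not overlap, and the HC11-mutB1 arrays hold exactly 1 repeated value, so that their SD of 0 is no measure of the spread. Cxcl12 rose 2.08-fold in HC11-ΔSAP over HC11-FL control cells (log2 difference 1.06, SE 0.05, adjusted p = 5.3e-06) and 1.56-fold in HC11-mutB1 cells (adjusted p = 7.4e-05), short of a doubling. HC11-ΔSAP exceeded HC11-mutB1 cells by 1.33-fold (adjusted p = 0.0010).

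The other expressed ligands changed by less than 2-fold in every comparison. Cxcl16, a membrane-anchored ligand of Cxcr6, rose in HC11-mutB1 over HC11-FL control cells by 0.63 on the log2 scale (adjusted p = 2.8e-04) and in HC11-ΔSAP cells by 0.33 (adjusted p = 0.0081), the latter call being lost in 11 of 17 other settings. Ccl9, a CC ligand that binds Ccr1, fell by 0.83 in HC11-mutB1 cells (adjusted p = 0.0012), and its difference in HC11-ΔSAP cells was -0.34 (adjusted p = 0.079). The monocyte attractants Ccl2 and Ccl7, neighbours on chromosome 11, fell in HC11-mutB1 cells by 0.58 and 0.54 (adjusted p = 0.0076 and 0.0014). In HC11-ΔSAP cells Ccl7 fell by 0.41 (adjusted p = 0.0053) and the difference of Ccl2 was -0.29 (adjusted p = 0.13). The Ccl2 call in HC11-mutB1 cells was lost in 10 and the Ccl7 call in HC11-ΔSAP cells in 8 of 17 other settings.

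Among ligands with homeostatic or mucosal roles, Ccl25, which binds Ccr9, fell in HC11-ΔSAP compared with HC11-FL control cells by 0.64 (adjusted p = 0.0015). A further Ccl25 probeset gave a difference of -0.49 there (adjusted p = 0.051). Ccl20, the ligand of Ccr6, had strain means of 7.46, 7.29 and 7.36 (HC11-FL, HC11-mutB1 and HC11-ΔSAP), and Cxcl17, a mucosal chemokine, of 4.79, 4.50 and 4.63, with no difference passing the test. Ccl19, a ligand of Ccr7, has 4 probesets with means from 3.48 to 7.50 that disagree, and the gene has near-identical copies, so its values are uncertain. Its brightest probeset differed by -0.53 in HC11-mutB1 (adjusted p = 0.012) and by 0.04 in HC11-ΔSAP compared with HC11-FL control cells (adjusted p = 0.89).

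The ligands that were not expressed are Ccl1, Ccl4, Ccl6, Ccl8, Ccl11, Ccl12, Ccl22, Ccl24, Ccl26, Ccl28, Cxcl3, Cxcl9, Cxcl11, Cxcl13, Cxcl14, Cxcl15, Pf4 and Xcl1. Their means lay between 2.73 and 3.98, and the highest single array was 4.11, for Ccl6. On chromosome 11 the run Ccl2, Ccl7, Ccl11, Ccl12, Ccl8 and Ccl1 holds 2 expressed genes, and the run Ccl5, Ccl9, Ccl6, Ccl3 and Ccl4 holds 3. In the latter run and in HC11-mutB1 compared with HC11-FL control cells, Ccl5 and Ccl9 fell while Ccl3 differed by 0.05. In HC11-ΔSAP cells Ccl3 rose, and the log2 differences were 0.42 for Ccl5 and -0.34 for Ccl9. Probesets shared by several ligand symbols, 3 in all, were left out by the rule.

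Few chemokine receptors were expressed. Of 24 measured, 7 had a mean of at least 4 (Ackr2, Ackr3, Ccr7, Ccr10, Cmklr1, Cx3cr1 and Cxcr3). Limma found 0 that passed all filters in any comparison, and at an unadjusted p under 0.05 there were 2 lower in HC11-mutB1 cells than HC11-FL control cells, 0 in HC11-ΔSAP compared with HC11-FL control cells and 1 higher in HC11-ΔSAP cells than HC11-mutB1 cells. At that unadjusted p, 22.9% of all expressed genes were lower and 27.4% higher in the first of these comparisons, 22.9% and 26.8% in the second and 21.5% and 22.6% in the third. Ackr3, which binds and removes Cxcl12, was 1.39-fold lower in HC11-mutB1 cells than HC11-FL control cells (adjusted p = 0.0015). HC11-ΔSAP exceeded HC11-mutB1 cells by 1.28-fold (adjusted p = 0.0084), a call lost in most fits that left out 1 array. Cxcr4, the signalling receptor of Cxcl12, had a mean of 3.53 and Cxcr2 of 2.62. Of the 7 receptors called expressed, Cmklr1, Cxcr3, Ackr2, Ccr7 and Ccr10 had means of only 4.04 to 4.35. These lie below the lowest array median of 4.53, so their expression is uncertain.

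Of 36 measured genes of the NF-kB pathway, 35 were expressed. In HC11-mutB1 compared with HC11-FL control cells 5 were lower and 10 higher at any fold, in HC11-ΔSAP cells 2 and 11, and in HC11-ΔSAP compared with HC11-mutB1 cells 3 and 8. Of all expressed genes, 10.6% were lower and 15.7% higher in the first of these comparisons, 12.0% and 16.0% in the second and 10.6% and 9.86% in the third. The median log2 fold changes of the pathway were 0.08, 0.16 and 0.09. Birc2, an inhibitor of apoptosis that ubiquitinates pathway members, fell 2.70-fold in HC11-mutB1 (adjusted p = 2.5e-05) and 3.38-fold in HC11-ΔSAP compared with HC11-FL control cells (adjusted p = 9.0e-06). Il1rap, a subunit of the interleukin 1 receptor, was 2.38-fold higher in HC11-ΔSAP cells than HC11-FL control cells (adjusted p = 2.2e-06).

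Birc3, a relative of Birc2 and a target of NF-kB, was 2.44-fold higher in HC11-ΔSAP cells than HC11-mutB1 cells (adjusted p = 8.5e-06). Nfkbiz, an inducible nuclear cofactor of NF-kB, rose 1.98-fold in HC11-ΔSAP over HC11-FL control cells (adjusted p = 1.5e-05) and 1.26-fold in HC11-mutB1 cells (adjusted p = 0.0049). Il1a, the cytokine interleukin 1 alpha, was 1.68-fold lower in HC11-ΔSAP cells than HC11-mutB1 cells (adjusted p = 3.0e-05). The kinase Ikbke was 1.61-fold lower (adjusted p = 1.6e-05) and the adaptor Traf1 1.59-fold higher in HC11-mutB1 cells than HC11-FL control cells (adjusted p = 0.0021). The subunits Rela and Relb differed in no comparison at an adjusted p of at most 0.01.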

How the data were processed

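Per the labels, total RNA of 9 samples, 3 for each of 3 strains, was hybridised to Affymetrix mouse gene arrays. The authors deposited log2 expression values of 34760 probesets, normalised together by RMA (affy package, R 2.10.0, per the submitters' processing notes), which corrects the background, equalises the distributions and summarises probes. Arrays give no counts, so their number limits the precision. Scans, slides and scan dates were not used here. Genes were named from the array annotation, gene order and promoters from RefSeq GRCm38.p6. One mean per strain was fitted to all 9 arrays with limma 3.58.1 in R 4.3.3 (6 residual and 1.93 prior degrees of freedom), with Benjamini-Hochberg adjustment over all probesets within a comparison. The thresholds follow the methods of the study. Counts use 1 probeset per gene, the brightest. The fit was tested on simulated data. All ligands are accounted for, those passing all filters with every array. Of receptors and NF-kB genes, the text names those passing all filters and at most 4 further with the largest fold. The expressed receptors, Cxcr2, Cxcr4, Rela and Relb are named in addition. Of 42 NF-kB genes listed, 36 had a probeset of their own. The members, lists and motifs were chosen with earlier results of these data known. Alternatives comprised other thresholds, fits, scalings and choices of probeset, a block for the replicate number and fits without each array in turn.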

Additional observations from a re-analysis of the deposited data

How the results depend on the processing

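Over 20 other settings, 9 of which leave out 1 array, the 8 ligands that passed all filters kept these calls in each of the 17 settings that gave values by gene, and 829 of the 918 log2 fold changes of expressed ligands kept both their direction and their side of the adjusted p of 0.01. Another 62 no longer passed, 25 passed in addition and 2 reversed. Both reversals are of Ccl19 in HC11-ΔSAP compared with HC11-FL control cells, 0.04 in the fit of all arrays, at -0.0665 without HC11-FL replicate 2 and -0.0017 without HC11-ΔSAP replicate 2, and at most 0.15 with any array left out.

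With a fold of at least 1.5, ligands lower in HC11-mutB1 cells than HC11-FL control cells numbered 5 in place of 3, those higher 3 in place of 1, and those lower in HC11-ΔSAP cells than HC11-FL control cells 2 in place of 1. At any fold, 7 ligands were lower in HC11-mutB1 cells than HC11-FL control cells. With 1 array left out these were 5 to 6, and under the other settings 5 to 9. The 8 ligands higher in HC11-ΔSAP cells than HC11-FL control cells at any fold became 5 when just these strains were fitted. They ranged from 5 to 7 with 1 array left out, with 5 without HC11-FL replicate 1 or 3, HC11-mutB1 replicate 1 or 2 or HC11-ΔSAP replicate 3. Ligands lower in HC11-ΔSAP cells than HC11-mutB1 cells, 0 in the fit reported, were 1 with trended and robust priors, with quantile normalization or with the mean of all probesets of a gene, and 2 with probesets under the minimum left out before the fit or with an adjusted p of 0.05. They were 0 to 1 with 1 array left out, with 1 without HC11-FL replicate 1 or 2 or HC11-ΔSAP replicate 3. The receptor Ackr3, 1 of 1 higher in HC11-ΔSAP cells than HC11-mutB1 cells, gave 0 when just these strains were fitted and with arrays centred on their medians, and 0 to 1 with 1 array left out, with 0 in all but the fits without HC11-FL replicate 1 or 3. NF-kB genes lower in HC11-ΔSAP cells than HC11-FL control cells were 4 in place of 2 at an adjusted p of 0.05, and those lower in HC11-ΔSAP cells than HC11-mutB1 cells 1 in place of 3 when just these strains were fitted and 1 to 3 with 1 array left out, with 1 without HC11-mutB1 replicate 2 or any 1 HC11-ΔSAP replicate.

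Replicate numbers are shared across strains in the labels. Same-numbered arrays of different strains correlated in their deviations from the strain mean at -0.11 to 0.26 over 9 pairs. Other-numbered ones did so at -0.26 to 0.23 over 18, and 3 of 9 arrays were closest to their own number in both other strains. These ranges overlap, so they cannot tell whether same-numbered arrays share anything beyond the number. With the replicate block, ligands higher in HC11-ΔSAP cells than HC11-FL control cells at any fold were 5 in place of 8, and NF-kB genes higher in HC11-mutB1 cells than HC11-FL control cells 6 in place of 10. The causes of these shifts were not tested. The signal over background limits ligands near the minimum of 4, such as Ccl2, Ccl7, Cxcl17 and Cxcl2. It also limits the receptors Cmklr1, Cxcr3, Ackr2, Ccr7 and Ccr10.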
